A study of Mus musculus with 12 samples.

Results

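Oligodendrocytes are the glial cells that wrap axons of the brain in myelin, and 34 genes of these cells and their myelin are described here across young, old and CP2-treated old mouse brain. The genes were taken by name as myelin proteins, myelin lipid enzymes and mature oligodendrocyte genes. All 34 were found in the deposited table of 43346 genes, with 1 row each, and all 34 passed a filter on low counts that left 22553 genes. RNA was sequenced from brain cross-sections that held hippocampus and cortex, in 3 groups of 4 libraries. The Young group was 3 months old, had the strain label C57BL/6 and was untreated. The Old group was 23 months old, had C57BL/6;SJL-Tg as strain label and from 9 months of age received the vehicle, 0.1% PEG (polyethylene glycol), in drinking water. The Old_CP2 group shared the age, strain label and vehicle of Old and received CP2 at 25 mg per kg per day. CP2 is a small molecule that inhibits mitochondrial complex I. Age, strain label and vehicle all differ between Young and Old, and their parts cannot be told apart. All 12 libraries are labelled wild type, and all 12 titles begin with NTG, a common short form of non-transgenic. The design text speaks of APP/PS1 mice, and this conflict was not resolved. The labels do not say that each library is a separate animal, so p-values measure the spread between these samples, which may be technical.

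Myelin is a stack of membrane in which adhesion proteins hold the layers together and galactolipids make up much of the outer leaflet. Oligodendrocytes arise from precursor cells, and the transcription factors Olig2, Sox10 and Myrf switch on the myelin programme as they mature. In the adult cortex and hippocampus myelin is sparse next to the white matter tracts that run beside and below them.

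Promoters of 4 of the genes that differed most between Old and Young are shown first, the pair that fell and then the pair that rose, to set the stretch upstream of each start beside its values. Each line gives the 250 bases before the start site, 5′ to 3′ on the strand of the gene, from RefSeq on GRCm38.p6. Capitals mark a match to 1 of the motifs searched.
Cldn11 promoter, chr3:31149670-31149919, plus strand: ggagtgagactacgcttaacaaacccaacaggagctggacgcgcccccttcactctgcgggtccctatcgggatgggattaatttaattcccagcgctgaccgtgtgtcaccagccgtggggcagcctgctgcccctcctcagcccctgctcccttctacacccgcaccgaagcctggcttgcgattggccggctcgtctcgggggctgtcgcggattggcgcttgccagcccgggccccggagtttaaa
Mal promoter, chr2:127656696-127656945, minus strand: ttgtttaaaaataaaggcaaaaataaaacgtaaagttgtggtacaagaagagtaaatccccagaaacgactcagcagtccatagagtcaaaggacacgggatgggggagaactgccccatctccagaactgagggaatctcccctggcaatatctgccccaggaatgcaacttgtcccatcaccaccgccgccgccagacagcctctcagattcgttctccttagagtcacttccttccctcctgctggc
Il33 promoter, chr19:29924863-29925112, plus strand: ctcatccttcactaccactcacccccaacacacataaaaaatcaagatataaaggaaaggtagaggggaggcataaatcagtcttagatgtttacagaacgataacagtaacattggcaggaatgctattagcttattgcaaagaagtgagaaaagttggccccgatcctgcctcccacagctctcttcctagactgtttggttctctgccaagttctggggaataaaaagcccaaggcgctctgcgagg
Apod promoter, chr16:31314809-31315058, minus strand: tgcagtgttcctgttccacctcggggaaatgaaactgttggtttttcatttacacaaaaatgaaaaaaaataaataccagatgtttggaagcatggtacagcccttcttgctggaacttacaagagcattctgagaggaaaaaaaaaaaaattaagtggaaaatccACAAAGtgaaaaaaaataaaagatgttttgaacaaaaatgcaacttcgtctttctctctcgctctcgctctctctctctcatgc

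The motifs were ACAAAG and ACAATG for SOX factors, CTGGCAC and CTGGTAC for MYRF, and the E-box CAGCTG, read on both strands, and no motif holds another. Apod carried ACAAAG from 84 to 79 bases before its start, and the windows of Cldn11, Mal and Il33 held none of these letters. GC content ran from 63.6% in the Cldn11 window to 45.2% in Il33 and 36.4% in Apod. A SOX motif was present in 16 of the 35 start sites listed for 25 of the 34 genes (45.7%) and in 25.2% of all 32851 windows of that length. The MYRF letters were in 5 of 35 (14.3%, against 5.93% of all windows) and CAGCTG in 2 of 35 (5.71%, against 4271 of the 32851). These shares are descriptions of the letters and were not tested.

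Levels were compared between genes on the deposited RPKM, read counts scaled to gene length and library size by the authors. The deposited length equalled the exon bases of the gene in the GENCODE vM21 annotation for 19 of the 34 genes. For Ppp1r14a it was 531 against 1367 bases, so the order of genes depends on the lengths used. Mbp, the myelin basic protein that holds the inner faces of the membrane together, was highest, with a median of 235 RPKM over the 12 libraries and a range of 199 to 351. Mobp, another protein of compact myelin, followed at 108 RPKM, and the ranges of the pair did not overlap. Below Mobp each neighbour in the order overlapped the next, through Cnp, Qdpr, Car2, Mal, Cldn11 and on down to Klk6 at 3.48 RPKM. Enpp6, at 1.25 RPKM, was the lowest and did not overlap Klk6. The least counted value of any of the 34 genes was 333 reads, for Klk6 in 1 library. The defining genes of central myelin were therefore present in every library.

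**Figure D1:**
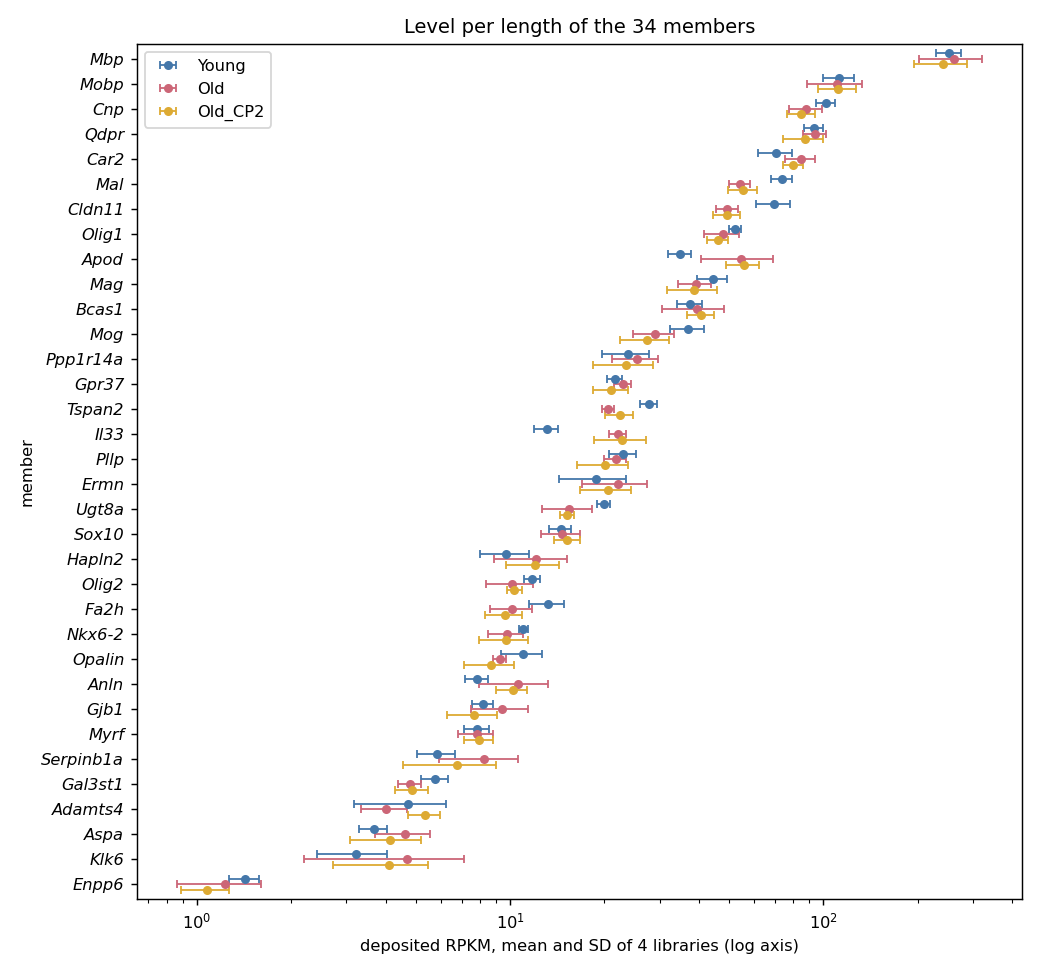
Deposited RPKM of the 34 genes (x axis, log scale) in Young, Old and Old_CP2, with points for the mean and bars for the SD of 4 libraries. Mbp stands apart at the top with a median of 235 RPKM, and Enpp6 at the bottom with 1.25.

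Between Old and Young, 6 of the 34 genes changed, which is 17.6%, where the same test called 6.7% of all 22553 genes. Il33 and Apod rose (3.96% of all genes did), and Cldn11, Mal, Tspan2 and Ugt8a fell (2.74%). Called means an adjusted p under 0.05 by the quasi-likelihood test of edgeR, after Benjamini-Hochberg correction over all genes tested. Genes as low as Sptlc3, under 1 CPM in each group, passed the filter, while the 34 genes had at least 333 reads in every library. The share of all genes is therefore not matched for level, and no test of the 34 genes as a set was run. At an unadjusted p under 0.05 there were 14 of the 34 genes, 5 higher and 9 lower, against 21.4% of all genes. The median log2 fold change of the 34 genes was -0.016 and that of all genes -0.0034, with 16 of the 34 above 0 and 18 below. Leaving out 1 library moved the median from -0.11 (without Old 7, with 23 genes below 0) to 0.029 (without Old 9). The genes therefore moved in both directions, and how they split by role is given next. In whole-tissue RNA, fewer oligodendrocytes and less RNA per oligodendrocyte cannot be told apart.

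Each gene was placed in a single role, and some, such as Ermn, Hapln2 and Anln, could be placed in another. Counts and medians by role depend on this choice. Among 13 genes grouped as structural proteins of myelin, 0 rose and 3 fell, with a median log2 fold change of -0.18. That is 23.1% called, against 6.7% of all genes. Cldn11 (chr3:31149920-31164324 on mm10) encodes the tight junction claudin that seals the layers of central myelin. Its normalised CPM (counts scaled to library size) was 190.2, 149, 140.5 and 162 in the Young libraries 1, 3, 4 and 5, and 123, 116, 105 and 110.0 in the Old libraries 7, 8, 9 and 10. Every Old library lay below every Young one, and the log2 fold change was -0.50 ± 0.093 (SE; edgeR adjusted p = 0.00883). Mal (chr2:127633226-127656695) encodes a proteolipid that sorts membrane to myelin. Mal CPM was 273, 244, 227 and 266 in Young and 199, 179.8, 178 and 184 in Old. The groups again did not overlap, with a log2 fold change of -0.44 ± 0.074 (edgeR adjusted p = 0.00520). Tspan2 (chr3:102734529-102772292), a tetraspanin of the oligodendrocyte membrane, was at 167, 145, 150.1 and 162 CPM in Young and at 114, 123, 109.8 and 117 in Old. The highest Old value was below the lowest Young value, and Tspan2 fell by 0.43 on the log2 scale with an SE of 0.068 (edgeR adjusted p = 0.00416).

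The other 10 structural genes did not pass the test, and several of the best-known myelin genes were among them. Mbp CPM was 2912, 2408, 2386 and 2727 in Young and 3549, 2459.8, 2409 and 2385 in Old. Only Old 7 stood above the Young range, and the log2 difference of 0.05 had a 95% interval of -0.27 to 0.37. Mobp differed by -0.02, with an interval of -0.30 to 0.25. Mog, the glycoprotein of the outermost myelin layer, was at 77.5 ± 10.3 CPM (SD, n = 4) in Young and 60.8 ± 7.96 in Old, with an interval of -0.62 to -0.08 and an edgeR adjusted p of 0.117. Mag, the glycoprotein that faces the axon, differed by -0.18 and Cnp, the enzyme that keeps cytoplasmic channels of myelin open, by -0.21. Opalin, a membrane protein of mature oligodendrocytes, differed by -0.25, and Pllp, a proteolipid of the myelin membrane, by -0.08. Ermn, a cytoskeletal protein of late oligodendrocytes, differed by 0.23, Hapln2, a link protein of the nodal matrix, by 0.30 and Gjb1, a gap junction protein, by 0.21. Adjusted p-values of these 10 genes ran from 0.117 to 0.945, which does not show that the groups were at the same level.

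Among 7 lipid and metabolic enzymes, 0 rose and 1 fell, with a median log2 fold change of -0.21. That is 14.3% called, against 6.7% of all genes, and in so short a list 1 call is little above that share. Ugt8a (chr3:125865359-125938550) makes galactosylceramide, the main glycolipid of myelin. Its CPM was 93.1, 83.0, 85.0 and 90.4 in Young and 84.0, 65.0, 58.3 and 64.8 in Old. Old 7 fell inside the Young range and the other 3 Old libraries below it, and the log2 fold change was -0.37 ± 0.089 (edgeR adjusted p = 0.0285). This call did not hold with only the 2 groups in the fit (0.0632) or without any 1 of Young 1, 4 or 5 or Old 8, 9 or 10 (up to 0.0816). Fa2h, which adds the hydroxyl group to those galactolipids, averaged 48.8 ± 6.80 CPM in Young and 37.6 ± 4.80 in Old, with an edgeR adjusted p of 0.0693. It was called as lower without Old 7 (0.0376) and by DESeq2 (0.0179). Gal3st1, which sulphates galactosylceramide to sulphatide, was at 14.4 ± 1.60 and 12.04 ± 0.737 CPM, with no overlap between the groups and an edgeR adjusted p of 0.120. These 3 enzymes of galactolipid synthesis thus had lower means in Old, and 1 of them passed the test. They are not the whole pathway, and a wider list of sphingolipid genes is given below. Car2, a carbonic anhydrase, averaged 211 ± 23.7 CPM in Young and 252 ± 24.9 in Old (edgeR adjusted p = 0.0929), and was called as higher without Old 9 (0.0471) and by DESeq2 (0.0414). Aspa, which frees acetate from N-acetylaspartate, differed by 0.34, Qdpr, which recycles tetrahydrobiopterin, by 0.01 and Enpp6, a choline-releasing enzyme of newly formed oligodendrocytes, by -0.21.

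Of the 5 transcription factors, 0 were called, against 6.7% of all genes, and the median log2 fold change was -0.13. With only 5 genes, 0 calls is near the share of all genes. Sox10 averaged 48.4 ± 4.05 CPM in Young and 48.7 ± 5.43 in Old, and Myrf at 82.6 ± 8.42 and 82.2 ± 8.14. Their 95% intervals, -0.18 to 0.19 for Sox10 and -0.20 to 0.18 for Myrf, were among the narrower ones. Olig1 differed by -0.13, Olig2 by -0.22 and Nkx6-2, a homeobox factor of maturing oligodendrocytes, by -0.18.

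Among 9 signalling, cytoskeletal, protease and secreted genes, 2 rose and 0 fell, with a median log2 fold change of 0.43. That is 22.2% called, against 6.7% of all genes. Il33 (chr19:29925114-29960718) encodes a nuclear alarmin of the interleukin-1 family that oligodendrocytes, and also astrocytes, express in the brain. Its CPM was 41.4, 47.8, 46.6 and 49.8 in Young and 82.9, 78.1, 75.4 and 77.5 in Old. All 4 Old libraries were far above the Young ones, with a log2 fold change of 0.76 ± 0.100 (edgeR adjusted p = 0.00150). Apod (chr16:31296192-31314808) encodes apolipoprotein D, a secreted lipid carrier. Its CPM was 104, 107, 109 and 122 in Young and 234, 172, 146 and 142 in Old. The groups did not overlap, Old 7 was highest, and the log2 fold change was 0.65 ± 0.136 (edgeR adjusted p = 0.0141).

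The other 7 genes of this role did not pass the test. Anln, a septin scaffold protein of myelin, averaged 52.4 ± 4.20 CPM in Young and 70.4 ± 16.3 in Old (edgeR adjusted p = 0.0745), and was called as higher without Old 9 (0.0332) and by DESeq2 (0.0180). Serpinb1a, a serine protease inhibitor, was at 13.9 ± 1.75 and 19.7 ± 5.17 CPM with no overlap (edgeR adjusted p = 0.188). Klk6, a secreted protease, had the widest interval, -0.13 to 1.18, and its highest value by far was 14.6 CPM in Old 7, against 5.91 to 6.69 in the other Old libraries. Gpr37, a receptor of maturing oligodendrocytes, differed by 0.08, Ppp1r14a, an inhibitor of a protein phosphatase, by 0.09, Bcas1, a protein of early myelinating cells, by 0.07 and Adamts4, a matrix protease, by -0.23. In all, 7 of the 34 genes had no overlap between Old and Young (Cldn11, Mal, Tspan2, Gal3st1, Il33, Apod and Serpinb1a), where 13.3% of all genes had none.

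**Figure D2:**
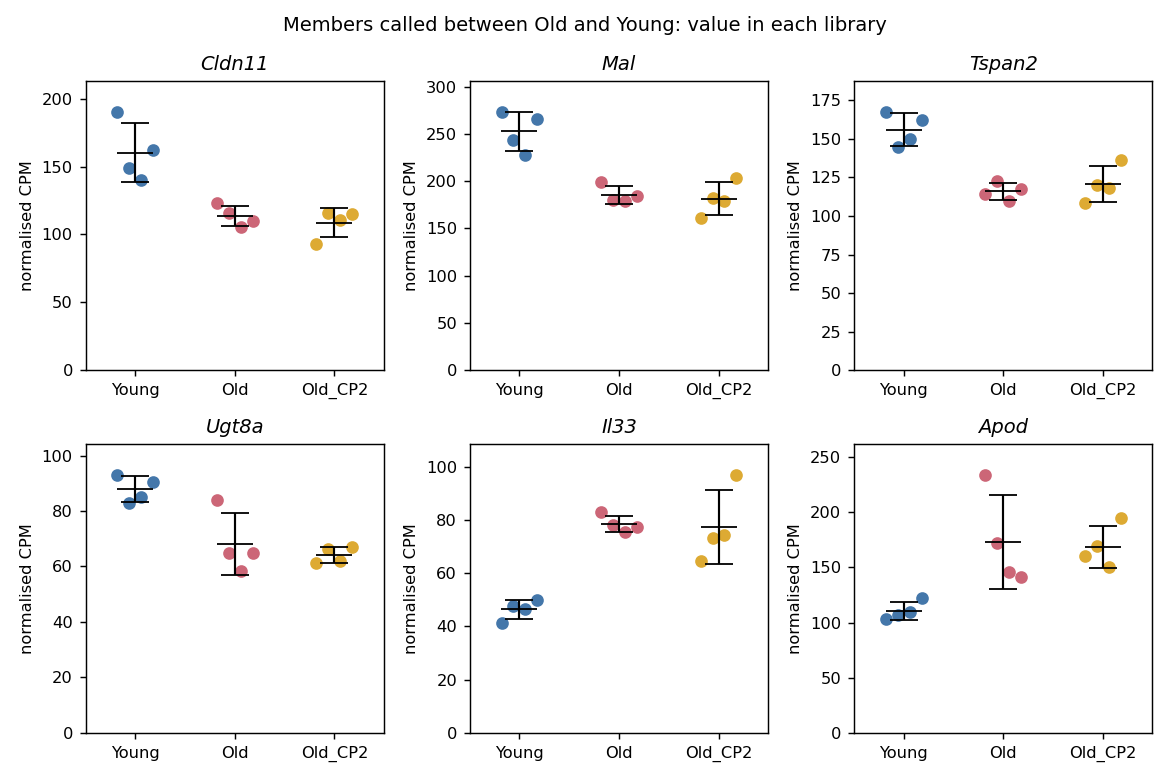
Normalised CPM (y axis, from 0) of the 6 genes called between Old and Young, with 1 point for each library and bars for the mean and SD of 4. Cldn11, Mal and Tspan2 lie lower and Il33 and Apod higher in every Old library than in any Young one, while Ugt8a overlaps through Old 7 at 84.0.

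CP2 treatment in old mice was compared with the vehicle, Old_CP2 against Old. Of the 34 genes 0 were called, where 0.0443% of all genes were (10 genes), 0.0266% higher and 0.0177% lower. DESeq2 and limma voom called 0 of the 34 as well. At an unadjusted p under 0.05 there were 2 of the 34, Gjb1 and Gpr37, both lower, against 6.31% of all genes. None of the 34 had groups without overlap, against 3.44% of all genes. The fold changes were below 0 for 32 genes, all except Tspan2 and Adamts4, with a median log2 fold change of -0.11 against 0.0017 over all genes. That median was -0.018 with 20 below 0 without Old 7, -0.066 without Old_CP2 11 and -0.18 without Old_CP2 15. Most of the 34 genes were highest in the same library of each group, Old 7 and Old_CP2 15. Adamts4, which was lowest in Old_CP2 15, was among the exceptions. The 32 signs are therefore not 32 separate observations.

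Values in each library follow for the 4 genes with the smallest p. Gjb1 CPM was 24.7, 17.7, 16.5 and 20.4 in Old and 13.4, 13.9, 15.3 and 19.2 in Old_CP2 (libraries 11, 12, 13 and 15). The groups overlapped through Old_CP2 15, with a log2 fold change of -0.36 ± 0.131 (edgeR adjusted p = 0.695). Gpr37 was at 116, 109, 106 and 104 CPM in Old and at 84.9, 98.0, 89.8 and 111 in Old_CP2, again with Old_CP2 15 inside the Old range (edgeR adjusted p = 0.730). Qdpr was at 241, 215, 210.4 and 218 in Old and 181, 183, 185 and 236 in Old_CP2. Adamts4 was at 28.4, 20.5, 22.6 and 23.1 in Old and 32.2, 32.5, 31.9 and 24.8 in Old_CP2. For Qdpr and Adamts4 as well, Old_CP2 15 alone among the treated libraries lay within the Old range.

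Among the 6 genes called between Old and Young, the treated and vehicle groups lay close together. Il33 was at 78.5 ± 3.15 CPM in Old and 77.3 ± 13.8 in Old_CP2, with a 95% interval of the log2 difference of -0.24 to 0.19. Apod was at 173 ± 42.6 and 169 ± 19.0 (-0.33 to 0.25). Mal was at 185 ± 9.65 and 182 ± 17.5 (-0.19 to 0.13), Cldn11 at 114 ± 7.71 and 109 ± 10.5 (-0.26 to 0.14), and Tspan2 at 116 ± 5.56 and 121 ± 11.4 (-0.09 to 0.20). Ugt8a was at 68.0 ± 11.1 and 64.1 ± 2.83 (-0.28 to 0.11). A difference of the size seen between Old and Young lies outside these intervals, in either direction, for Mal, Cldn11, Tspan2, Ugt8a, Il33 and Apod. By role, the medians of the treated against the vehicle group were -0.12 for structural genes, -0.14 for enzymes, -0.034 for transcription factors and -0.12 for the signalling and secreted genes.

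**Figure D3:**
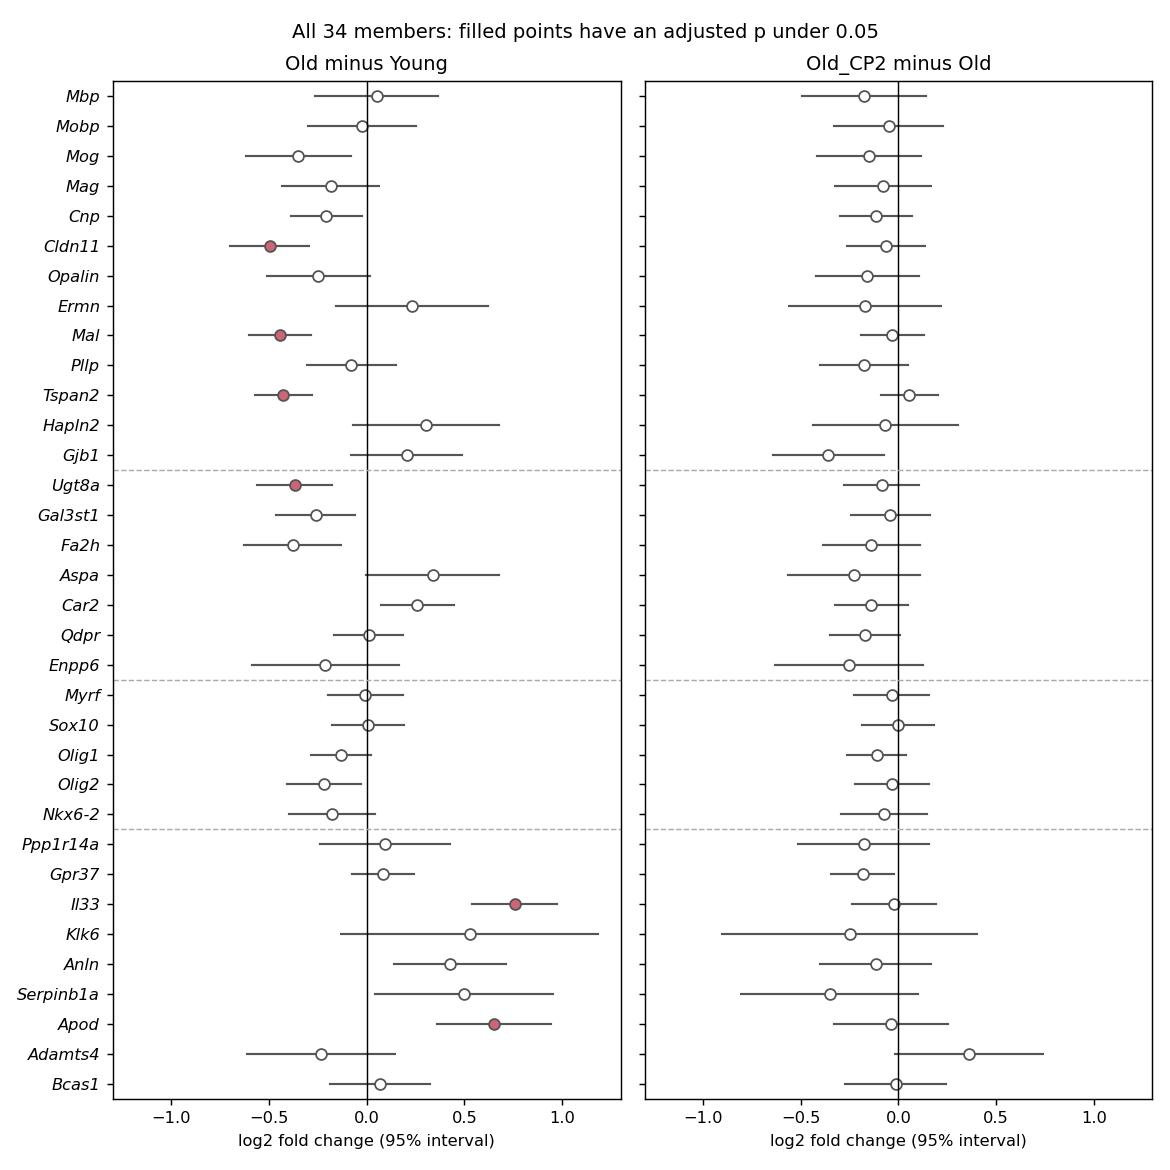
Log2 fold changes of the 34 genes with 95% intervals (x axis), for Old minus Young and Old_CP2 minus Old, in blocks by role, with filled points for an adjusted p under 0.05. The left panel has 6 filled points, 4 below and 2 above 0, and the right panel has 0.

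Old_CP2 was also set against Young, the comparison that shares the Young libraries with Old against Young and is not a separate line of evidence. Of the 34 genes 9 were called, 26.5%, against 7.57% of all genes, with 2 higher (Il33 and Apod, against 4.63%) and 7 lower (Cldn11, Mal, Tspan2, Ugt8a, Mog, Cnp and Fa2h, against 2.94%). All 6 genes called in Old were among them. The median log2 fold change was -0.14, against -0.0076 over all genes, and 12 genes had no overlap, against 15.5% of all genes. Without Old_CP2 15, 16 were called and the median was -0.25, and without Old_CP2 11 the median was -0.068.

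The values of the called genes stood side by side as follows. Il33 CPM was 64.6, 73.3, 74.4 and 97.0 in the Old_CP2 libraries, all above Young, and its log2 fold change from Young was 0.74 ± 0.100 (edgeR adjusted p = 0.00131), beside 0.76 for Old. Apod was at 161, 169.9, 150.2 and 195 CPM, also above every Young library, with 0.61 beside 0.65. Its edgeR adjusted p was 0.0173, and 0.0504 without Young 1. Il33 and Apod were therefore high in all 8 libraries of the older groups.

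The structural genes and enzymes stood lower. Cldn11 was at 93.3, 116, 111 and 115 CPM, with a log2 fold change from Young of -0.56 beside -0.50 for Old. Mal was at 161, 183, 179 and 204 CPM, with -0.48 beside -0.44. Tspan2 was at 109, 119.9, 118 and 136 CPM, with -0.37 beside -0.43. Every Old_CP2 library was below every Young one for these 3 genes. Ugt8a was at 61.3, 66.2, 62.1 and 66.9 CPM, with -0.45 beside -0.37. Its 4 treated libraries were close together, without a value as high as that of Old 7.

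Mog (chr17:37010743-37023398) was at 90.7, 70.7, 67.9 and 80.8 CPM in Young and at 45.5, 52.9, 53.2 and 67.7 in Old_CP2, with a log2 fold change of -0.50 ± 0.125 (edgeR adjusted p = 0.0291). The highest treated value was just under the lowest Young one. Cnp (chr11:100574904-100591729) was at 488, 429, 428 and 478 CPM in Young and 322, 372, 358 and 407 in Old_CP2 (-0.32 ± 0.084, edgeR adjusted p = 0.0364). Fa2h (chr8:111345135-111393824) was at 58.1, 43.8, 43.7 and 49.8 CPM in Young and 29.0, 36.0, 32.4 and 39.2 in Old_CP2 (-0.52 ± 0.115, edgeR adjusted p = 0.0180). The calls of Mog and Cnp were lost without any 1 of several libraries, with adjusted p up to 0.0868 for Mog and 0.110 for Cnp without Old_CP2 11, and Fa2h reached 0.0565 without that library. Mog, Cnp and Fa2h were called in Old_CP2 and not in Old, yet the direct comparison of Old_CP2 with Old gave intervals that included 0 for each: -0.42 to 0.12, -0.30 to 0.07 and -0.39 to 0.11.

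The spread within each group had a shape common to most of the genes. The CPM of the 34 genes had sums between 5995 and 7123 for Young (mean 6536 ± 550), 5769 and 8007 for Old (mean 6499.9 ± 1019), and 5177 and 7129 for Old_CP2 (mean 5980.3 ± 845), so the groups overlapped. Old 7 was the highest Old library for 29 of the 34 genes, where it was highest for 28.6% of all genes. Old_CP2 15 was highest in its group for 31 (32.9% of all genes) and Old_CP2 11 lowest for 29 (23.5%). In Young, library 1 was highest for 22 genes (30.2%).

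**Figure D4:**
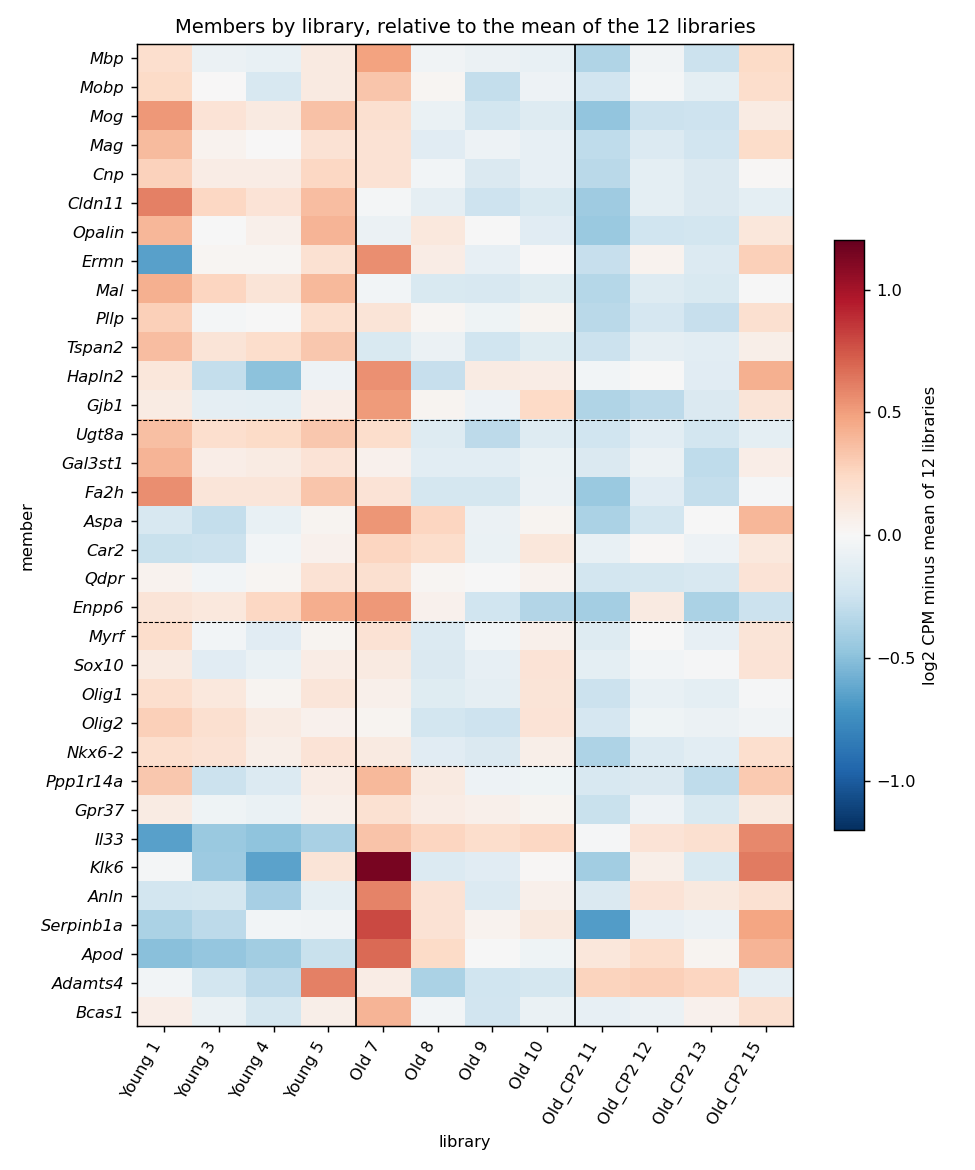
Log2 CPM of the 34 genes minus their mean over the 12 libraries (colour), with genes in rows in blocks by role and libraries in columns by group. Columns Old 7 and Old_CP2 15 are red and Old_CP2 11 blue over most rows, while Il33 and Apod are blue across the Young columns.

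Other lists also differed between libraries, taken as summed CPM, and did not follow this pattern throughout. A list of 15 midbrain and hindbrain genes summed to 169 in Old 7 against 92.9 to 111 in the other Old libraries, and to 246 in Old_CP2 15 against 84.8 to 114. In Young the sums were 12.5 to 40.4, with 15.4 in Young 1. The highest was in Young 3, which was the highest Young library for 0 of the 34 genes. Of the 15 genes of this list, 13 rose in Old against Young (86.7%, against 3.96% of all genes). The 12 neuron genes had their lowest sums in Old 7 (8661) and Old_CP2 15 (9786) within their groups. In Young the lowest sum, 10099.5 in Young 1, was close to the 10166.4 of Young 3. The 12 choroid plexus and ependyma genes had sums of 1248 to 2012 CPM (Young), 42.1 to 1001 (Old) and 38.6 to 852 (Old_CP2), with the low values in Old 7, Old 9, Old_CP2 11 and Old_CP2 15. Most of the 34 genes were high in Old 7 and Old_CP2 15 and low in Old 9 and Old_CP2 11. Of 9 striatal genes 7 fell (77.8%), and of 10 thalamic genes 7 fell (70%), in Old against Young, where 2.74% of all genes fell. Genes of several brain regions thus differed between groups and libraries, and their part in the oligodendrocyte results was not tested.

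Of the cell types that share genes with the list, 12 astrocyte genes had sums of 4443 to 5072 CPM (Young), 5853 to 6244 (Old) and 5018 to 5567 (Old_CP2). Of these, 6 rose in Old against Young, Gfap among them (log2 fold change 0.81), and 0 fell. That is 50% called, against 6.7% of all genes. Of 12 microglial genes 3 rose (25%) and 0 fell, with sums of 327 to 414 CPM in Young and 464 to 471 in Old. Il33 and Apod are also expressed by astrocytes, and the part of astrocytes in their rise was not tested.

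Because the libraries differed together, each gene was also set against Mbp in the same library, as CPM per 1000 CPM of Mbp. This ratio was chosen after the values were seen and is given as a description, with no test. In Old against Young, 15 of the other 33 genes had ratios without overlap, 9 lower and 6 higher, where 4.82% of all genes did. In Old_CP2 against Old there were 0 (1.2% of all genes), and in Old_CP2 against Young 13, 9 lower and 4 higher (6.7%). Dividing by Mbp adds its spread to genes that do not follow it and removes shared spread from genes that do. On CPM the share of all genes without overlap was 13.3% in Old against Young and 15.5% in Old_CP2 against Young. The shares of all genes on this ratio are therefore not a like baseline for the other 33 genes. Cldn11 stood at 65.3, 61.7, 58.9 and 59.4 per 1000 CPM of Mbp in Young and at 34.7, 47.2, 43.7 and 46.1 in Old. Mog stood at 28.5 to 31.1 in Young and 20.4 to 24.3 in Old, and Fa2h at 18.2 to 19.96 and 12.5 to 15.8. Mog, Mag, Cnp, Fa2h and Ugt8a (lower in Old) and Aspa, Gjb1 and Anln (higher in Old) overlapped on CPM but not on this ratio.

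Il33 stood at 14.2 to 19.8 per 1000 CPM of Mbp in Young and at 23.4 to 32.5 in Old, and Apod at 35.6 to 45.9 and 59.3 to 69.9. Ermn was unlike the rest. Its CPM was 56.2 in Young 1 and 89.7 to 100.3 in the other Young libraries, although Young 1 was the highest Young library for 22 of the 34 genes. Against Mbp it stood at 19.3 in Young 1 and at 34.2 to 38.2 in each of the other 11 libraries.

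**Figure D5:**
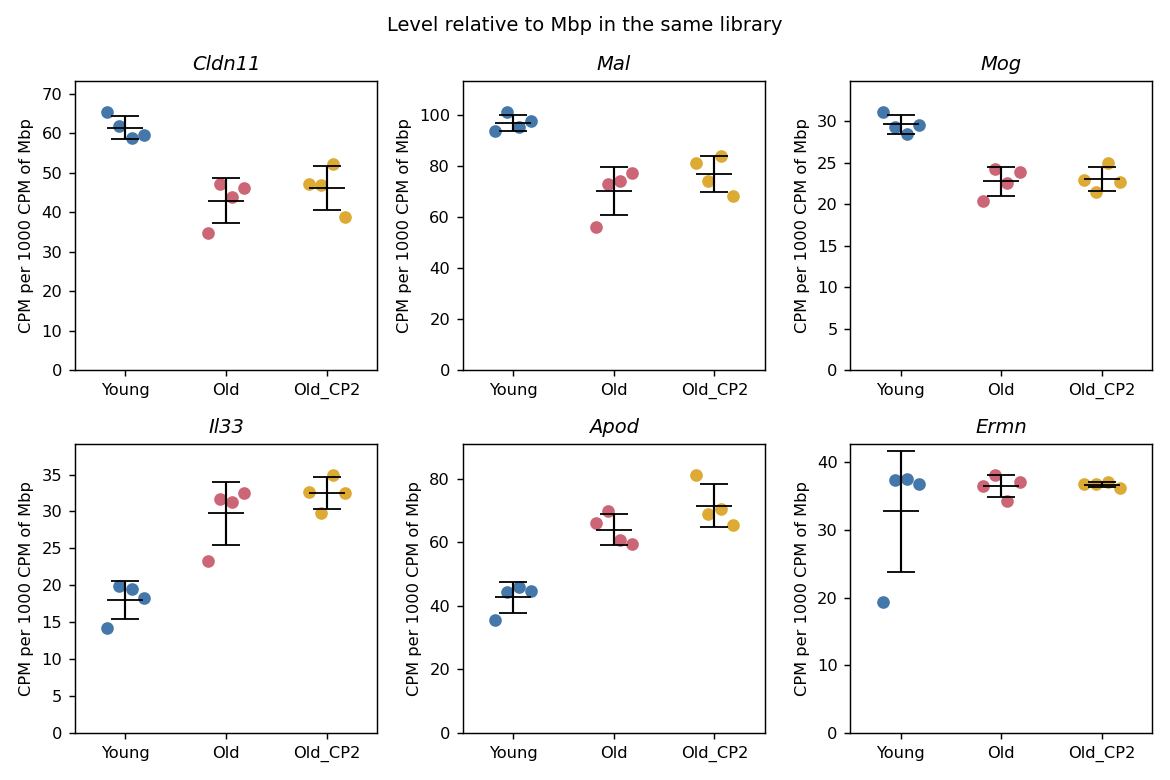
CPM per 1000 CPM of Mbp in the same library (y axis, from 0) for 6 genes, with 1 point for each library and bars for the mean and SD of 4. Cldn11, Mal and Mog lie lower and Il33 and Apod higher in every Old and Old_CP2 library than in any Young one, and Ermn has 1 low point, Young 1 at 19.3.

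Related lists were counted in the same way, beside the 6.7% of all genes called in Old against Young. Of 40 further mature oligodendrocyte genes, 3 were called in Old against Young (Padi2 and Fgfr2 higher, Gamt lower), or 7.5%, a share near that of all genes, with a median log2 fold change of -0.0031. Padi2, which converts arginine to citrulline in myelin proteins, averaged 42.3 ± 7.82 CPM in Young and 64.9 ± 5.19 in Old. Gamt, which makes creatine, was at 10.2 ± 0.618 and 7.42 ± 0.307. Of 16 genes of newly formed oligodendrocytes 3 fell (18.8%) and 0 rose, with a median of -0.14. Gpr17, a receptor of the stage between precursor and myelinating cell, was at 59.8 ± 1.13 CPM in Young, 36.7 ± 6.80 in Old and 35.7 ± 4.61 in Old_CP2, with a log2 fold change in Old of -0.70 ± 0.12 (edgeR adjusted p = 0.00506). Sema5a and Fyn, a guidance molecule and a kinase upstream of myelin protein synthesis, fell as well, by 0.33 and 0.19. Of 11 precursor genes 2 fell (18.2%), Gpr17 again and Cacng4, while the median was -0.014.

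A list of 23 genes for sphingolipid and fatty acid metabolism held mostly enzymes. Plp2, a membrane protein, and Gltp, a transfer protein, are not enzymes, and Elovl7 is also in the mature list above. Of the 23, 1 rose (Asah2, a neutral ceramidase, 0.52) and 1 fell (Sptlc3, a serine palmitoyltransferase subunit with under 1 CPM in each group, -2.05). That is 8.7% called and near the share of all genes. Of 14 genes of the axon and node of Ranvier, 1 fell (7.14%, also near that share): Nfasc, the neurofascin that anchors nodes and the myelin edges beside them, at 378 ± 23.9 CPM in Young and 295 ± 18.6 in Old (edgeR adjusted p = 0.00410). Of 19 genes reported as raised in reactive oligodendrocytes, 3 rose in Old (15.8%) and 0 fell. C4b, a complement component, averaged 21.0 ± 4.13 CPM in Young and 94.9 ± 34.2 in Old (log2 fold change 2.18), and the interferon-induced Ifit3 and Ifit1 differed by 0.79 and 0.87. Other glia also express these genes, so the list does not mark oligodendrocytes alone. In Old_CP2 against Young, 6 of the 19 reactive genes rose and 0 fell (31.6%, against 7.57% of all genes). In Old_CP2 against Old, 0 genes were called in each of the mature, newly formed, precursor, sphingolipid, node and reactive lists. Of the 19 reactive genes, 16 had fold changes above 0 in that comparison. At an unadjusted p under 0.05 there were 3 of them, all higher, against 6.31% of all genes.

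Counting without strand limits some members. On GENCODE vM21, 10 of the 34 genes share exon bases with another gene. The share is over 10% of exon bases for Pllp (54.2%, Gm45767), Qdpr (18.6%, Gm42413), Nkx6-2 (12.9%, Inpp5a) and Bcas1 (12.6%, Bcas1os1 and Bcas1os2), all on the opposite strand. Reads of these pairs cannot be told apart, and 0 of the 4 genes were called in the 3 comparisons with all 12 libraries in the fit. Without Old_CP2 15, Nkx6-2, Pllp and Qdpr were among the genes called in Old_CP2 against Young.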

How the data were processed

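The submitters' processing notes name bcl2fastq, TopHat, Subread's featureCounts and the mm10 build; versions and annotation are not given in the sources used here. Libraries were paired-end, 101 bases, without strand, per the labels' protocols and design text. The deposited table holds, per the file headers, a gene count made by the authors, whole and unscaled, and an RPKM value made by the authors, used only to compare levels between genes. Depth was 70548781 to 99449665 counts per library.

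Counts were fitted in R 4.3.3 with edgeR 4.0.16 (filterByExpr by group, TMM, quasi-likelihood, all 12 libraries, group only), and p-values were adjusted over 22553 genes. Values are normalised CPM, mean ± SD of 4 libraries, and SEs come from the F statistic. DESeq2 1.42.0, limma 3.58.1 voom, other scaling, no filter, the 2 groups alone and leaving out libraries were alternatives. Every member is named; called members and the 4 with the smallest p in each comparison are given by library, and up to 4 genes by p from other lists. The rule for members uses gene names and no values, but the members and lists were chosen with earlier results of these data known, so their counts are not independent evidence. Lists named Schwann cell and endothelium were measured too: 1 of 11 Schwann genes rose (Fbln2, 9.09%) and 1 of 10 endothelial genes fell (10%) in Old against Young. Both shares are near the 6.7% of all genes. Of 12 neuron genes 1 rose and 2 fell (25%), and of 12 choroid plexus and ependyma genes 1 fell (8.33%). All 12 choroid plexus and ependyma genes had fold changes below 0, with a median log2 fold change of -1.36. Lhfpl3, Epb41l3 and Drd1 were not matched by symbol and are not analysed here.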

Additional observations from a re-analysis of the deposited data

Results flagged for a closer look

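A library far from the other 3 of its group was found in 6 of 102 groups of 4 values (34 genes, 3 groups), by Dixon's gap test at the 95% level; chance gives about 1 in 20. Of the 6, 3 were high values of Old 7: Mbp at 3549 CPM (next 2459.8), Klk6 at 14.6 (next 6.69) and Serpinb1a at 27.4 (next 17.9). Old_CP2 15 gave 2, Qdpr high at 236 CPM (next 185) and Adamts4 low at 24.8 (next 31.9), and Old_CP2 11 gave Olig2 low at 27.4 CPM (next 30.1).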

How the results depend on the processing

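Each comparison was recomputed under 18 alternatives. In Old against Young, 5 to 9 of the 34 genes were called, 5 to 7 when 1 library was left out (9 with DESeq2, and 9 without Old 7 and Old_CP2 15 together), and Cldn11, Mal, Tspan2, Il33 and Apod were called in all 18. The median log2 fold change ran from -0.108 (without Old 7) to 0.0291 (without Old 9) when 1 library was left out, and was -0.114 without Old 7 and Old_CP2 15 together. In Old_CP2 against Old, 0 were called in all 18, and the median ran from -0.185 (without Old_CP2 15) to -0.0176 (without Old 7). In Old_CP2 against Young, leaving out 1 library gave 6 to 16 called genes and medians from -0.250 to -0.0675, and leaving out Old 7 and Old_CP2 15 together, an alternative chosen after seeing the data, gave 16 and -0.257; the cause was not tested. No called gene reversed its direction. Of 612 gene values in each comparison, 7, 0 and 15 lost a call and 9, 0 and 23 gained one, in the order above. Over all genes, calls in Old against Young went from 1511 to 855 without Young 4 and 2474 with DESeq2, in Old_CP2 against Old from 10 to 6 without Old 9, 38 without Old_CP2 15 and 108 with DESeq2, and in Old_CP2 against Young from 1707 to 827 without Old_CP2 11 and 2652 with DESeq2. No paired analysis was possible because the groups share no replicate number. With 4 libraries a group, differences as small as most of those not called could not be resolved.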
